A study of Homo sapiens with 9 samples.

Results

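The 8 genes described here encode transcription factors of the PEA3 (ETV1, ETV4 and ETV5), ETS (ETS1 and ETS2) and ELK (ELK1, ELK3 and ELK4) groups of the ETS family. They were taken by name, by a rule that uses no measured value, though with earlier results of these data known, and are 8 of the 18132 genes measured. RNA was hybridised to 9 Affymetrix PrimeView arrays, 1 per culture of MDA-MB231, a human breast cancer line of triple-negative type. In 3 cultures the MEK inhibitor PD325901 was given at 3 µM, in 2 the metalloproteinase inhibitor BB94 (batimastat) at 10 µM, and 4 control cultures received 0.1% DMSO. All cultures were in serum-containing medium and were lysed after 24 h. Both inhibitors came from DMSO stock, and the labels do not say whether vehicle was matched across doses. The cultures are labelled as biological replicates, and each drug was used at a single dose and time.

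ETS factors bind DNA at a GGAA core, and many are end points of the MEK and ERK kinase cascade. The PEA3 factors are activators whose genes are held down by the repressor CIC, which ERK signalling relieves, and whose proteins are destroyed through the ubiquitin ligase COP1. ETS1 and ETS2 are switched to strong coactivator binding when ERK phosphorylates them, and the ELK proteins, or ternary complex factors, bind with SRF at immediate early genes and are likewise ERK substrates. PD325901 blocks MEK and so ERK activation, while BB94 blocks the proteases that shed receptors and growth factors from the cell surface.

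All values are deposited log2 summaries of a probe set, a group of probes for 1 transcript region, and each gene is given by its brightest probe set. Array medians over all probe sets ran from 6.05 to 6.34. The highest of 23 background probe sets lay at 6.02 to 6.50 across arrays and is called the background level here, which is a strict floor. A gene is called when its adjusted p from limma, over all 18132 genes, is under 0.05. The labelled line's markers VIM, CD44 and AXL were above that level on all 9 arrays, and their summed level (log2 of the sum of linear values) ran from 15.17 to 15.22 with PD325901, from 15.24 to 15.31 with BB94 and from 15.22 to 15.27 in control. Of 6 luminal breast markers, ESR1, PGR and CDH1 were below background on all 9 arrays. The summed luminal level was 11.41 to 11.49 with PD325901, 10.73 to 10.85 with BB94 and 10.82 to 11.22 in control. Of the endothelial markers 0 of 4, and of the measured leukocyte markers 0 of 3, were above background on every array, and 1 of 4 fibroblast markers was. On all 9 arrays, 2 of 4 endothelial markers and 3 of 3 leukocyte markers were below background. The endothelial sum was 7.77 to 8.10 with PD325901, 9.41 to 9.47 with BB94 and 9.49 to 9.66 in control. Its brightest gene in control, PECAM1, had 6.86, 6.07 and 6.06 with PD325901, 8.97 and 8.90 with BB94, and 9.17, 9.13, 9.19 and 9.09 in control. The fibroblast sum was 7.41 to 7.61 with PD325901, 7.13 with BB94 and 7.18 to 7.36 in control. The leukocyte sum was 6.19 to 6.43 with PD325901, 6.02 to 6.13 with BB94 and 6.08 to 6.14 in control. The part of these differences in the results was not tested. The difference between the 3' and 5' ACTB probe sets, which grows as RNA is shortened, was 3.50 to 4.15 with PD325901, 3.91 to 4.22 with BB94 and 2.96 to 3.89 in control, and its part was not tested either. Several genes below divide the control arrays into replicates 1 and 2 against 3 and 4, for which the labels give no batch. Against the brighter of these 2 subsets a gene's change is lower by construction. Results given for both subsets therefore test no batch.

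With PD325901 the 3 PEA3 genes ETV1, ETV4 and ETV5 fell steeply, ELK4 and ELK3 fell more mildly, and 0 of the 8 genes were called higher. In all, 5 of 8 genes were called lower, where 12.3% of all genes were called lower and 35.1% were called in either direction. Of the called genes 65.1% were higher, and 31.7% were when each array was centred on its median over genes. The median change of the 8 was -0.88 on the log2 scale, against 0.08 over all genes. In cultures, fewer cells of a type and less RNA per cell cannot be told apart. ETV1, ETV4 and ETV5 ranked 3, 4 and 5 from the lowest by fitted change among all 18132 genes, an order that is not measured for ETV1 and ETV4, whose falls are bounds. By contrast, 0 of the 8 were called with BB94, where 1.58% of all genes were called (31.1% of them higher, or 45.3% after centring over genes and 59.3% over probe sets). An unadjusted p under 0.05 with BB94 was found for 1 of the 8, ETS2, and for 1968 of all 18132 genes.

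**Figure D1:**
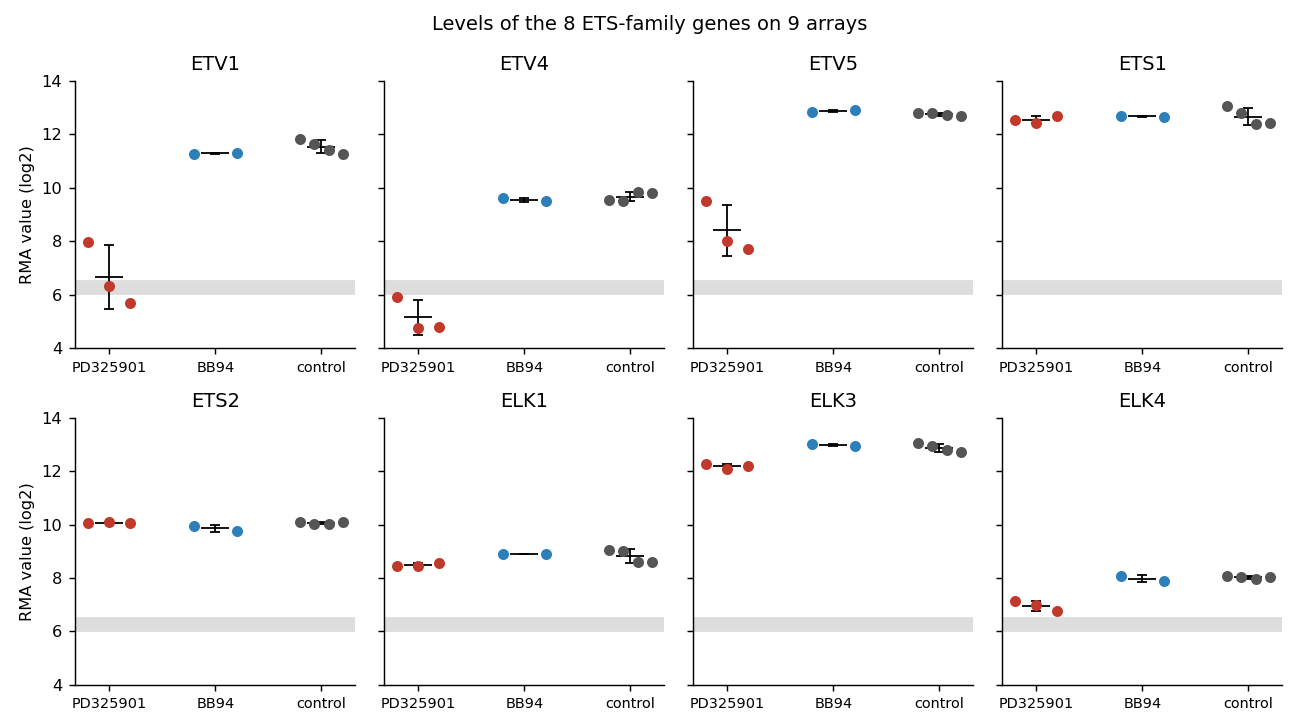
Log2 values of the 8 genes on each array, with PD325901 (red), BB94 (blue) and control (grey) from left to right. Short black lines are group means with SD, and the grey band spans the background levels of the 9 arrays. The PD325901 points of ETV1, ETV4 and ETV5 lie far below all others, those of ELK3 and ELK4 lie below by less, and those of ETS1 and ETS2 overlap the control points.

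ETV1, an activator also known from gene fusions in prostate cancer, had the lowest fitted change of the 8. It (probe set 11733180_a_at) had values of 7.99, 6.31 and 5.69 in PD325901 replicates 1 to 3, of 11.28 and 11.30 in the BB94 replicates, and of 11.82, 11.65, 11.41 and 11.28 in control replicates 1 to 4. Every PD325901 array lay below every other array. The mean was 6.66 ± 1.19 with PD325901 and 11.54 ± 0.24 in control (SD, n = 3 and 4), a fitted change of -4.88 (SE 0.42, limma adjusted p = 7.0e-06). Because only 1 of 3 PD325901 arrays was above background, the measured fall is at least 23.9-fold.

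The promoter of ETV1 is shown because 1 of the motifs of its repressor CIC lies in it. RefSeq (GRCh38.p14) gave 6 windows of 300 bases, 250 before to 50 after annotated starts of ETV1, and the window at chr7:13991376-13991675, minus strand, holds the motif, TGAATGGA, in capitals, starting 125 bases before the start on the strand shown.
ETV1 promoter: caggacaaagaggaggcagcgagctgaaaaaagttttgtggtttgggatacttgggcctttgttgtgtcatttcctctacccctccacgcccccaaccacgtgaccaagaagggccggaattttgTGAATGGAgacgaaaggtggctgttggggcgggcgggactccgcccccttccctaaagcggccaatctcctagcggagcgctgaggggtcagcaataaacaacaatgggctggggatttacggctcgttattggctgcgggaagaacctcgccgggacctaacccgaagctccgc
Over 35116 promoter windows of all genes, searched on both strands, TGAATGGA was found in 1.03%. It was in none of the members' other windows. The other CIC octamer, TGAATGAA, was in 1.65% of windows and in 0 of the members' windows. The match describes letters, not occupancy.

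ETV4 is the PEA3 factor named for the polyomavirus enhancer site it binds. It (11719434_a_at) had 5.92, 4.75 and 4.80 with PD325901, 9.60 and 9.50 with BB94, and 9.56, 9.50, 9.83 and 9.79 in control. The PD325901 arrays were all below background and the other arrays all above it. The means were 5.16 ± 0.66 and 9.67 ± 0.17 (SD, n = 3 PD325901 and 4 control), a change of -4.52 (SE 0.24, limma adjusted p = 2.8e-07), or at least 9.53-fold.

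ETV5, also called ERM, was above background on every array. It (11720353_s_at) had 9.49, 8.01 and 7.71 with PD325901, 12.85 and 12.91 with BB94, and 12.79, 12.82, 12.74 and 12.69 in control. Its PD325901 arrays lay below all others, a 20.4-fold fall. The means were 8.41 ± 0.95 with PD325901 and 12.76 ± 0.06 in control (SD, n = 3 and 4), a change of -4.35 (SE 0.33, limma adjusted p = 3.0e-06).

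PD325901 replicate 1 was the least changed array for ETV1 and ETV5. Its changes from the control mean were -3.55 for ETV1 and -3.27 for ETV5, while replicates 2 and 3 lay between -4.74 and -5.85. ETV4 was below background on all 3 PD325901 arrays, so its replicates have no measured order. The ERK feedback gene DUSP6 was likewise least changed in that array, by -2.32 against -4.38 and -5.35. CCND1, the cyclin D1 gene, changed by -3.02, -3.30 and -3.55 in replicates 1, 2 and 3.

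**Figure D2:**
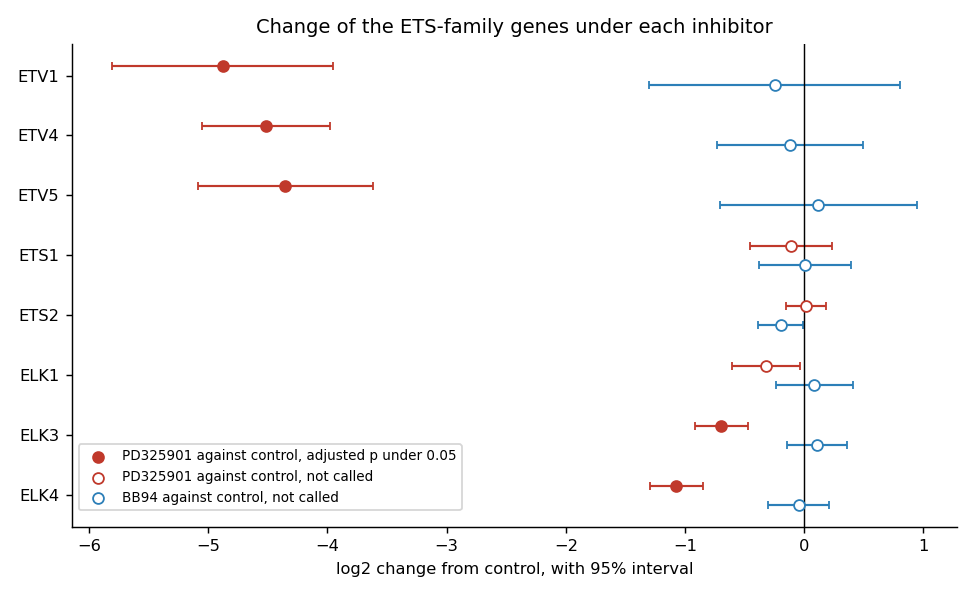
Fitted log2 change from control of each gene with its 95% interval, for PD325901 (red) and BB94 (blue), with filled points for adjusted p under 0.05. The 5 filled red points lie left of 0, from -4.88 for ETV1 to -0.70 for ELK3, and every BB94 interval but that of ETS2 spans 0.

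The ternary complex factors ELK3 and ELK4 fell with PD325901 and ELK1 did not pass the test. ELK4 (11734985_at), also called SAP1, had 7.14, 6.98 and 6.75 with PD325901, 8.07 and 7.88 with BB94, and 8.06, 8.03, 7.96 and 8.05 in control. Its PD325901 arrays lay below all others, and the fall was 2.10-fold (log2 change -1.07, SE 0.10, limma adjusted p = 1.4e-05). ELK3 (11759022_s_at), also called NET, a repressor when unphosphorylated, had 12.26, 12.06 and 12.20 with PD325901, 13.01 and 12.95 with BB94, and 13.05, 12.94, 12.79 and 12.70 in control. It fell 1.62-fold (log2 change -0.70, SE 0.10, limma adjusted p = 2.7e-04), with groups that did not overlap. ELK1 (11734040_s_at) had 8.44, 8.45 and 8.58 with PD325901, 8.90 and 8.89 with BB94, and 9.07, 9.0, 8.60 and 8.58 in control. Its change was -0.32 (SE 0.13, unadjusted p = 0.0309, limma adjusted p = 0.0803). Against control replicates 1 and 2 alone the ELK1 change was -0.54 (adjusted p = 9.6e-04) and against 3 and 4 alone -0.10 (adjusted p = 0.321).

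The ELK4 promoter is shown because its start region holds an ETS core, the type of site these factors bind. The window is chr1:205631962-205632261, minus strand (RefSeq, GRCh38.p14), and capitals mark CCGGAAG, starting 22 bases before the annotated start.
ELK4 promoter: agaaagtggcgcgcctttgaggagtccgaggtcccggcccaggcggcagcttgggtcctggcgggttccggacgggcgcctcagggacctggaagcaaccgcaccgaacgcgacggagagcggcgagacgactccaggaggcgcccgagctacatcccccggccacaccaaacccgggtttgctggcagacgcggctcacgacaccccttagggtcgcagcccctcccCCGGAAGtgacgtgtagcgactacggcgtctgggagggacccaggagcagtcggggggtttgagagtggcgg
That motif was in 10.3% of all windows on either strand, and in none of the members' other windows. Of the 8 genes, 5 matched a RefSeq window (12 windows in all), and neither the AP-1 motif TGANTCA nor the CArG box was in any of them, against 7.71% and 1.29% of all windows. ETV4, ETV5 and ETS1 were not matched.

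ETS1 and ETS2 did not pass the test with PD325901 at their brightest probe sets. ETS1 (11722300_a_at) had 12.55, 12.43 and 12.68 with PD325901, 12.70 and 12.65 with BB94, and 13.05, 12.82, 12.37 and 12.43 in control. The PD325901 change was -0.11 (95% interval -0.46 to 0.23, limma adjusted p = 0.642). It was -0.38 against control replicates 1 and 2 (adjusted p = 0.0222) and 0.15 against 3 and 4 (adjusted p = 0.197). ETS2 (11758370_s_at) had 10.07, 10.08 and 10.08 with PD325901, 9.95 and 9.77 with BB94, and 10.08, 10.04, 10.02 and 10.11 in control. Its PD325901 change was 0.01 (95% interval -0.15 to 0.18, limma adjusted p = 0.911). Centring every array on its median over genes, which moves PD325901 down by 0.25, gave -0.24 (adjusted p = 0.0421), a move that the scaling makes for every gene.

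The 8 genes have 28 probe sets in all, which need not agree. With PD325901, 21 were called lower, 1 higher and 6 not called over 49293 probe sets, of which 12.1% were called lower and 17.2% higher. All 8 ETV1 probe sets were lower, with changes from -5.29 to -1.68, as were both of ETV4 and all 4 of ETV5. Of the ETV1 probe sets, 2 were below background on all 9 arrays. The 2 ETS1 probe sets other than the brightest were also lower. On 11752387_a_at, ETS1 had 11.17, 11.10 and 11.07 with PD325901, 11.75 and 11.79 with BB94, and 11.79, 11.63, 11.68 and 11.59 in control, a change of -0.56 (SE 0.08, limma adjusted p = 4.3e-04). On 11722301_a_at it had 7.12, 7.22 and 7.22 with PD325901, 7.56 and 7.73 with BB94, and 7.69, 7.73, 7.57 and 7.73 in control, a change of -0.50 (SE 0.09, adjusted p = 0.00124). Both kept the call in all 16 alternatives run, chosen after the data were seen, so the ETS1 result differs by probe set. The 1 probe set called higher, 11734984_a_at of ELK4 (0.31, adjusted p = 0.0162), was below background on all 9 arrays, while the other 3 ELK4 probe sets were lower. The 2 fainter ELK1 probe sets were below background on all 9 arrays, and neither ETS2 probe set was called. ELK3's other probe set changed by -0.83 (adjusted p = 0.00107).

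**Figure D3:**
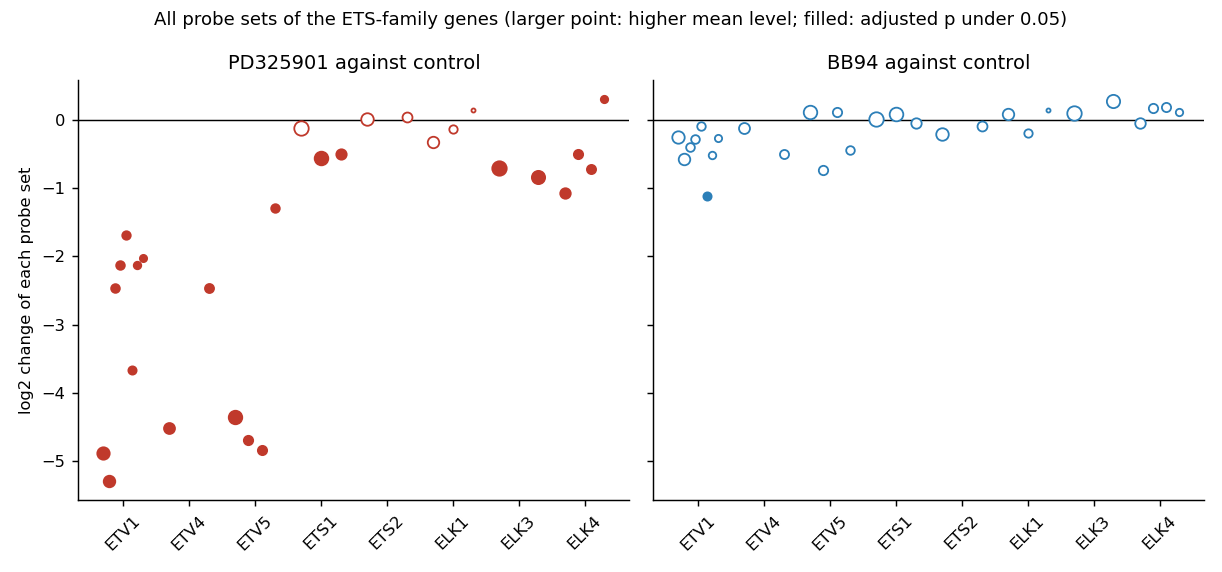
Log2 change of each of the 28 probe sets for PD325901 (left) and BB94 (right) against control, by gene. A filled point has an adjusted p under 0.05 and a larger point a higher mean level. Filled PD325901 points lie mostly below 0, and the lone filled BB94 point is an ETV1 probe set at -1.11.

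With BB94, 0 of the 8 genes passed the test. At their brightest probe sets ETV1, ETV4 and ETV5 changed by -0.25, -0.12 and 0.12. The 95% interval for ETV1 of -1.30 to 0.81 rests on an error pooled with the PD325901 arrays. In a fit of BB94 and control alone the adjusted p was 0.832 for ETV1, 0.959 for ETV4 and 0.911 for ETV5. Other ETV5 probe sets changed by -0.74 (11720351_a_at, limma adjusted p = 0.162) and -0.45 (11748612_a_at, adjusted p = 0.185). Its probe set 11720352_at changed by 0.11 (adjusted p = 0.932). ETV4 changed by -0.50 at 11747996_a_at (adjusted p = 0.666). None of these was called, and the sign of the ETV5 change differed by probe set. The intervals of ELK3 and ELK4 were -0.14 to 0.36 and -0.30 to 0.21. ETS2 had its BB94 arrays below all controls, with a change of -0.20 (unadjusted p = 0.0426, limma adjusted p = 0.433), where 11.0% of all genes had BB94 arrays lower without overlap. Of the 28 probe sets, 1 was called lower, where 1.13% of all probe sets were. That is 11733181_at of ETV1, with 3.36, 3.40 and 3.05 under PD325901, 6.01 and 5.64 under BB94 and 7.22, 7.07, 6.79 and 6.69 in control (BB94 change -1.11, SE 0.17, adjusted p = 0.0103). Both BB94 values are below background and the call was lost without BB94 replicate 2 (-0.93, adjusted p = 0.218). All 8 ETV1 probe sets were fitted below 0 with BB94, and 2 of them were below background on all 9 arrays. The mean array median over all probe sets was 0.11 lower with BB94 than in control. The share of all probe sets fitted below 0 was not counted. Of the 8, 7 were not called. Of those, 11745799_s_at was above background on every BB94 and control array. It had 10.19 and 10.06 with BB94, and 10.79, 10.72, 10.69 and 10.59 in control (change -0.57, limma adjusted p = 0.549). Over 16 alternatives, chosen after the data were seen, its change ran from -0.74 to -0.46 and its lowest adjusted p was 0.0291.

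Set directly against BB94, PD325901 had 5 of the 8 genes lower (ETV1, ETV4, ETV5, ELK3 and ELK4), where 10.2% of all genes were called lower. Of all called genes 67.3% were higher, and 28.4% after centring over genes. ETV1 changed by -4.63, or at least 20.1-fold (limma adjusted p = 4.9e-05), ETV4 by -4.40, or at least 8.77-fold (adjusted p = 1.7e-06), and ETV5 by -4.47, or 22.2-fold (adjusted p = 1.2e-05). ELK3 fell 1.75-fold (adjusted p = 4.3e-04) and ELK4 fell 2.04-fold (adjusted p = 9.3e-05). Both comparisons of PD325901 use the same arrays. The inhibitors have different targets and were used at 3 µM (PD325901) and 10 µM (BB94).

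Most of the other 20 ETS family genes were not called with PD325901, and ELF3 and EHF rose. ELF5 (-0.19, limma adjusted p = 0.114) and SPDEF (-0.02, adjusted p = 0.903), named after their values were seen, were not called and lay below background on all 9 arrays. So did ERG, FLI1, FEV, ETV3, ETV3L, SPI1, SPIB and SPIC, also named after their values were seen and not called. Changes in these genes were therefore not measured. With PD325901, 4 of 20 were higher, where 22.8% of all genes were, and 1 was lower, with a median change of 0.10. ELF3, an epithelial differentiation factor, had 12.19, 12.18 and 12.12 with PD325901, 7.31 and 7.02 with BB94, and 8.59, 8.59, 8.62 and 8.39 in control. It rose 12.2-fold with PD325901 (log2 change 3.61, SE 0.09, limma adjusted p = 3.2e-09) and fell 2.61-fold with BB94 (-1.38, SE 0.11, adjusted p = 2.0e-04), the only one of the 28 ETS family genes called in both comparisons. EHF, a related epithelial factor, was at least 1.78-fold higher with PD325901, its control arrays being below background. ETV2 (0.62, adjusted p = 0.0055) and ELF4 (0.51, adjusted p = 0.0051) were also higher, and both calls were lost when arrays were centred on their median over genes. The lone lower gene, ETV7, named after its value was seen, had a change of -0.51 (adjusted p = 0.0099) that turned to 0.11 with the mean of its probe sets.

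**Figure D4:**
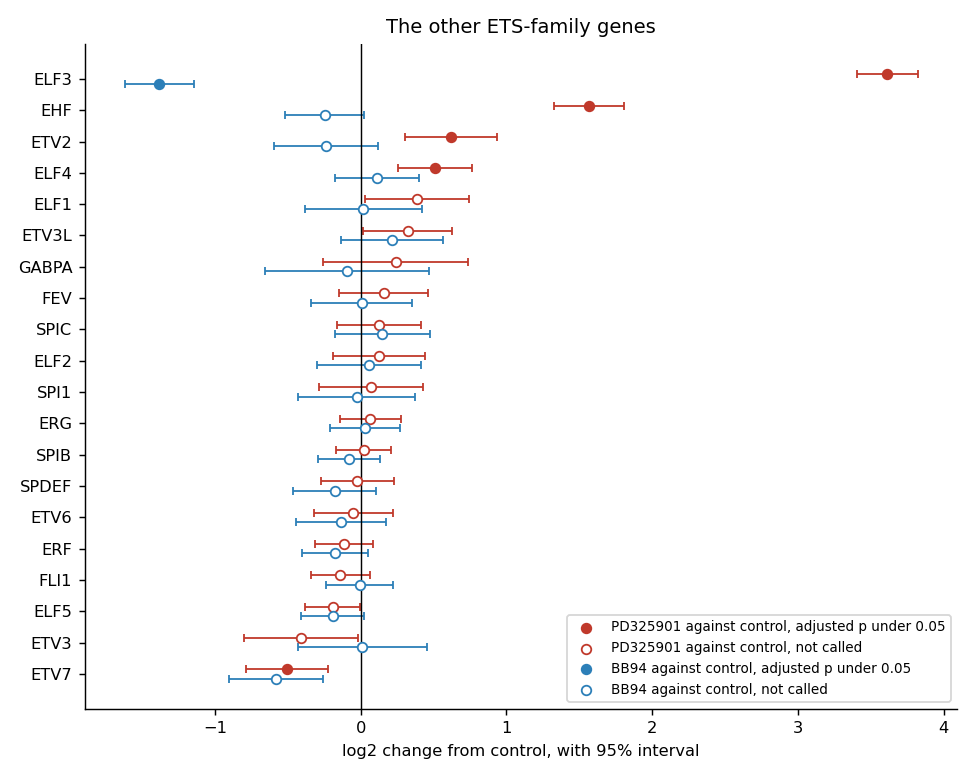
Log2 change from control with 95% interval for the 20 ETS family genes outside the 8, for PD325901 (red) and BB94 (blue), with filled points for adjusted p under 0.05. ELF3 stands apart at 3.61 with PD325901 and -1.38 with BB94.

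Among 10 genes listed for CIC and its partners and for the COP1 ligase and its adaptors, 2 were higher, 2 lower and 6 not called with PD325901 (median -0.02). That share is near the 35.1% of all genes called. With BB94 0 were called by limma, and 1 had an unadjusted p under 0.05, as had 1968 of all 18132 genes. CIC itself averaged 9.92 ± 0.06 with PD325901 and 9.42 ± 0.16 in control (SD, n = 3 and 4), a rise of 0.50 (limma adjusted p = 0.0027) that was lost on centring over genes (adjusted p = 0.0666). TRIB1 and TRIB2, pseudokinases that bring substrates to COP1, fell by 0.59 and 0.42 on the log2 scale (adjusted p = 1.4e-04 and 0.0057). Whether they act on PEA3 factors was not tested. DET1, a part of the COP1 ligase, rose by 0.37 (adjusted p = 0.0398) and lost its call in 9 alternatives. COP1 changed by -0.06 (adjusted p = 0.654).

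Of the partner proteins, 8 of 11 were measured, and with PD325901 2 were higher and 1 lower (median 0.13), likewise near the 35.1% of all genes called. MRTFB, an SRF coactivator, rose by 0.60 (limma adjusted p = 0.0023) and PIAS2, a SUMO ligase, fell by 0.33 on the log2 scale (adjusted p = 0.0125). CREBBP, a coactivator acetyltransferase, rose by 0.35 (adjusted p = 0.0395) and lost the call in 12 alternatives. With BB94 0 were called, and 0 had an unadjusted p under 0.05, against 1968 of all 18132 genes.

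Of 13 measured immediate early genes of SRF and ELK, 6 were lower, 2 higher and 5 not called with PD325901 (median -0.40), where 12.3% of all genes were lower and 22.8% higher. With BB94 0 were called by limma, and 2 had an unadjusted p under 0.05, as had 1968 of all 18132 genes. EGR1, a zinc finger factor, had 11.54, 9.74 and 9.18 with PD325901, 13.23 and 13.84 with BB94, and 13.62, 14.08, 13.88 and 13.78 in control. It fell 12.9-fold (log2 change -3.69, SE 0.44, limma adjusted p = 7.5e-05). IER3 and IER2 fell by 1.25 and 1.05 on the log2 scale (adjusted p = 4.9e-07 and 6.8e-06), and EGR3 by 1.63, with 0 of 3 PD325901 and 2 of 4 control arrays above background. FOS, with 6.54, 8.17 and 8.66 under PD325901 against 8.49, 9.69, 9.34 and 9.05 in control, was named after its values were seen and was not called (adjusted p = 0.0736), though it was in 6 of 21 alternatives. The 2 higher genes, JUNB and ZFP36, were also named after their values were seen, and each lost its call in 12 or more of the alternatives.

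Of 15 invasion genes known as targets of ETS factors, 8 were lower, 2 higher and 5 not called with PD325901 (median -0.40), where 12.3% of all genes were lower and 22.8% higher. MMP3, a stromelysin, fell by at least 2.42-fold (limma adjusted p = 3.2e-07). SPP1, or osteopontin, changed by -1.73 (adjusted p = 2.1e-05), PLAUR, the urokinase receptor, by -1.61 (adjusted p = 2.8e-07) and MMP9, a gelatinase, by -1.54 (adjusted p = 1.0e-05). With BB94, 2 of the 15 were lower, where 1.09% of all genes were. A limma unadjusted p under 0.05 was found there for 6 of the 15, and for 1968 of all 18132 genes. MMP3 had 6.95 and 6.79 with BB94 against 7.71, 7.74, 7.75 and 7.59 in control (change -0.83, SE 0.15, adjusted p = 0.0260), a call lost in 6 alternatives. PLAU, the urokinase, had 10.77 and 10.58 with BB94 against 11.25, 11.31, 11.36 and 11.26 in control (change -0.62, SE 0.09, adjusted p = 0.0064). That call was lost without BB94 replicate 2 and with a replicate block. These targets were not measured for binding by the ETS factors here.

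ETV4 and ETV5 belong to a transcript score of MAPK pathway activity, and they were left out of the list of its genes used here. Of the other 8 genes of that score, 7 were lower with PD325901 (median -2.53), where 12.3% of all genes were. With BB94 0 were called by limma, and 1 had an unadjusted p under 0.05, as had 1968 of all 18132 genes. SPRY4, an ERK feedback inhibitor, changed by -5.43, a fall of at least 25.4-fold (limma adjusted p = 7.7e-07). DUSP6, an ERK phosphatase, fell 16.2-fold (adjusted p = 1.5e-04). CCND1 changed by -3.29 (SE 0.13). EPHA2, a receptor kinase, fell 7.20-fold (adjusted p = 9.4e-08). EPHA4, named after its values were seen, was not called (0.20, adjusted p = 0.199).

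The genes whose profile over the 9 arrays lay closest to a PEA3 gene, after each gene's control mean was subtracted and with the 8 genes themselves left out, were drawn from the same few. The measure is the root-mean-square log2 difference over 9 arrays. Outside the 8, ETV1 was closest to MYEOV (0.295), SPRY4 (0.399) and DUSP6 (0.545). Outside the 8, ETV4 was closest to MYEOV (0.416), MIG7 (0.427) and DUSP6 (0.556). Outside the 8, ETV5 was closest to MIG7 (0.367), DUSP6 (0.368) and MYEOV (0.472). Between the PEA3 genes themselves the differences were 0.251 for ETV4 and ETV5, 0.386 for ETV1 and ETV5, and 0.419 for ETV1 and ETV4. The nearest other member to ETV5 was ELK4, at 1.93. These are descriptions over arrays that share the treatment groups, and carry no test. They also use values below background. With PD325901, ETV4 and MIG7 were above background on 0 of 3 arrays, ETV1 and SPRY4 on 1, and MYEOV on 2. Differences that involve these genes, and their order, are therefore not fully measured.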

How the data were processed

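The deposited values are log2 summaries per probe set that the authors made with the RMA routine of affy, per the design text of the series, and they were used as deposited. The platform annotation gave 44988 of 49395 probe sets 1 gene symbol, 1832 several and 2473 none, and 102 control probe sets were left out. Of those with 1 symbol, 44961 matched RefSeq and 0 symbols were updated. A gene with several was read from the brightest by mean. The fit used limma 3.58.1 under R 4.3.3 (lmFit and eBayes, two-sided, 6 residual degrees of freedom, all arrays sharing the spread), adjusted by Benjamini-Hochberg. Where an array of the dimmer group was below its background level, "at least N-fold" sets the brighter group's mean against, per array, the higher of that level and the gene's value. The script was tested on simulated data. Depth does not apply to arrays, so their number sets the precision. Same-numbered replicates did not deviate together (correlations from -0.19 to 0.12), so the numbers were not taken as pairs. The members, gene lists and tests were chosen with earlier results of these data known. The naming rule took the 8 genes, up to 4 called genes per other list and comparison by absolute change, any gene called in opposite directions by the inhibitors, and the 3 genes nearest to each PEA3 gene. The alternatives were probe set means, no collapse, a filter at a mean of 5, trend and robust variance, array weights, 3 scalings, 2 subsets of controls, the compared groups alone, a replicate block and each array left out.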

Additional observations from a re-analysis of the deposited data

How the results depend on the processing

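The PD325901 calls of ETV1, ETV4, ETV5, ELK3 and ELK4 kept their direction and their side of the threshold in all 21 alternatives run against control and all 19 against BB94. Fitted changes against control ran from -5.54 to -3.03 for ETV1, -4.90 to -3.49 for ETV4, -4.90 to -3.79 for ETV5, -0.95 to -0.57 for ELK3 and -1.32 to -0.50 for ELK4. Without single arrays, 5 to 6 of the 8 genes were called with PD325901 against control and against BB94, and 0 with BB94 against control. ELK1 was called with PD325901 in 8 of 21 alternatives, with changes of -0.57 to -0.10 and adjusted p of 9.6e-04 to 0.462. With array weights, 1 member, ETS2, was called higher in PD325901 against BB94 (adjusted p = 0.0364), and the cause was not tested. ETS2 against control reversed to -0.24 when arrays were centred on their median over genes, a scaling that lowers PD325901 by 0.25 relative to control by construction. ETS1 was called with the mean of its probe sets (-0.39, adjusted p = 0.00396). With the replicate number as a block, 6 members were called with PD325901 through ELK1 (-0.40, adjusted p = 0.0473), and 161 genes with BB94 in place of 286. The BB94 count of genes ran from 62 without BB94 replicate 2 to 1633 against control replicates 3 and 4. With the 95th percentile of the background probe sets as the level, the bounds were 25.2-fold for ETV1 and 10.6-fold for ETV4. The height of the background level limits the folds of ETV1 and ETV4.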
